A study of Mus musculus with 11 samples.

Results

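The genes described here are 9 components and brakes of the MAP kinase cascade in alveolar macrophages: the MAP kinase kinases Map2k1 and Map2k2, the MAP kinases Mapk3 and Mapk14, the dual specificity phosphatases Dusp1, Dusp2, Dusp5 and Dusp6, and the Ras pathway inhibitor Spred1. They were chosen by name for their place in the pathway, out of 21887 protein-coding genes of the RefSeq annotation. Earlier results of these data were known when they were chosen. A peak was assigned to a gene when it lay inside the gene, when it came within 1000 bp of either gene end, or when that gene had the nearest protein-coding gene end within 50 kb. A peak within 1000 bp of a gene end is called a boundary peak below, and 36 peaks of the 9 genes, forming 21 separate regions, were found in all lists together.

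Chromatin accessibility was assayed by ATAC-seq, in which a transposase places sequencing adapters into open DNA. The cells were tissue-resident alveolar macrophages sorted from lungs of C57BL/6 mice, either naive (4 samples) or bearing tumours grown from KP or KP-GFP cells, a lung adenocarcinoma line delivered through the tail vein, at 15 days (4 samples) and 30 days (3 samples) after injection. The comparison asks how open regions of these macrophages differ between healthy and tumour-bearing lung. Each group has 1 list of peaks, so values have no replicate error, no comparison between conditions carries a p-value, and intervals cover counting error only.

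In the MAP kinase cascade a Raf-type kinase phosphorylates MAP2K1 and MAP2K2 (MEK1 and MEK2), which phosphorylate MAPK3 (ERK1). MAPK14 (p38 alpha) belongs to a parallel branch that responds to stress and to microbial products, and in macrophages both branches drive cytokine and early response genes. The cascade limits itself: dual specificity phosphatases, many of them induced by the cascade, remove the activating phosphates, and SPRED1 holds back Ras and the activation of Raf.

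The lists held 14731 naive, 10861 day 15 and 3352 day 30 peaks. The depth recovered from the genome-wide background was, per 10 kb, 39.2 tags for naive cells, 93.5 at day 15 and 82.2 at day 30, so the shortest list was not the shallowest. Median summit pileups, the number of tags stacked at the summit, were 16, 19 and 17 in the naive, day 15 and day 30 lists. Below, pileup is also given as a multiple of the list's genome-wide background, which adjusts for depth only. Other scalings turned the direction of some ratios. Of 10 alveolar macrophage markers, 3 had a boundary peak in naive cells (Itgax, Pparg and Ear2), 1 at day 15 (Mrc1) and 0 at day 30, against 34.7%, 29.6% and 12.8% of all protein-coding genes in the same order. The label of the cells is therefore not borne out by boundary peaks at these markers in any list. Peaks elsewhere at the markers were not counted, so the counts do not settle what the cells were. Boundary peaks were absent from all 3 lists for the 5 B cell, 6 epithelial or tumour cell, 5 endothelial and 5 fibroblast markers. Cd14 of 5 monocyte or interstitial macrophage markers and Cd3d of 5 T cell markers had one in each list but that of day 30, and S100a8 of 5 neutrophil markers in all 3. The role of other cells in the results was not tested.

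Most of the 9 genes had an open start in naive macrophages and at day 15, and few had one at day 30. Naive macrophages had boundary peaks called at 7 of 9 genes, against 34.7% of all genes. The count was 6 of 9 at day 15, against 29.6% of all genes, and 2 of 9 at day 30, against 12.8%. The 7 naive genes were Map2k1, Map2k2, Mapk14, Dusp1, Dusp5, Dusp6 and Spred1. Spred1 was the gene without a boundary peak at day 15, and Map2k1 and Map2k2 were the ones with a boundary peak at day 30.

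Set against the naive list, day 15 lacked a boundary peak at 1 of these 7 genes, where the background share was 20.4% of genes open in naive cells. At day 30, 5 of the 7 lacked one, against 63.5% of all such genes. Between the tumour lists, 4 of the 6 genes with a day 15 boundary peak had none at day 30, against 57.9% of all such genes. All 3 shares of the members lie near the background, so these counts alone do not set the members apart. None of the 9 genes gained a boundary peak, against 3.04% of all genes at day 15 and 0.245% at day 30 relative to the naive list, and 0.506% at day 30 relative to day 15. That count depends on the threshold and length of the lists. With a −log10 q of at least 5, Map2k2 lost its naive peak and counted as gained at day 15, as 2.99% of all genes without a naive boundary peak did, and at day 30, as 0.239% did. With lists of equal length, Map2k1 and Map2k2 counted as gained at day 30 relative to naive, as 4.74% of all genes did, and at day 15 the members gained 0, against 3.73%.

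**Figure D1:**
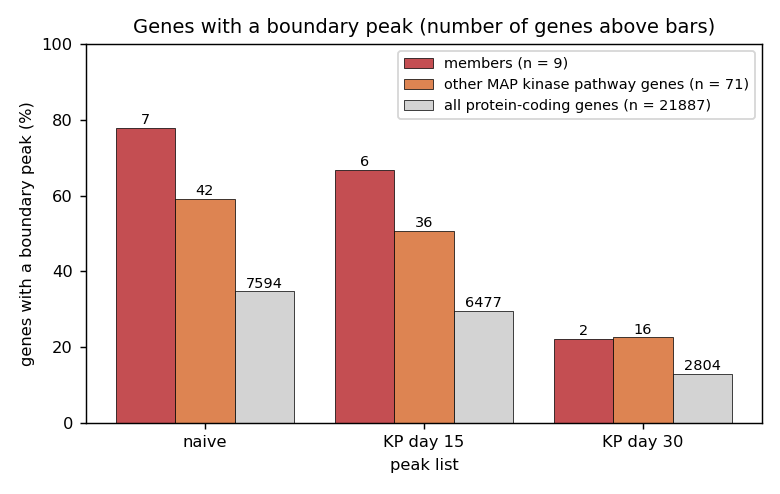
Share of genes with a boundary peak (percent, vertical axis) in the naive, KP day 15 and KP day 30 lists for the 9 members, 71 other genes of the MAP kinase pathway and all 21887 protein-coding genes, with the number of genes above each bar. Both pathway groups stand above all genes in every list, and all 3 bars are lowest at day 30, where 2 of 9 members had a boundary peak.

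In all, the 9 genes had 18 naive, 14 day 15 and 4 day 30 peaks. Of the 21 regions, 8 were found in the naive list alone, 7 shared by naive and day 15, 3 in all 3 lists, 2 at day 15 alone and 1 at day 15 and day 30. Of the 14 day 15 peaks, 11 overlapped a naive peak (78.6%, 95% Wilson interval 52.4 to 92.4%), against 87.2% of all day 15 peaks. Of the 18 naive peaks, 10 overlapped a day 15 peak (55.6%, 33.7 to 75.4%), against 64.1% of all naive peaks. For day 30, 3 of 4 peaks overlapped a naive peak (75%, 30.1 to 95.4%), against 96.5% of all, and 3 of 18 naive peaks overlapped a day 30 peak (16.7%, 5.84 to 39.2%), against 21.7%. All 4 day 30 peaks overlapped a day 15 peak (100%, 51.0 to 100%), against 94.1% of all, and 4 of 14 day 15 peaks overlapped a day 30 peak (28.6%, 11.7 to 54.7%), against 28.7%. Of the 6 intervals, 5 contain the share over all peaks, and the exception rests on the 4 day 30 peaks, of which that of Map2k2 overlapped no naive peak.

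**Figure D2:**
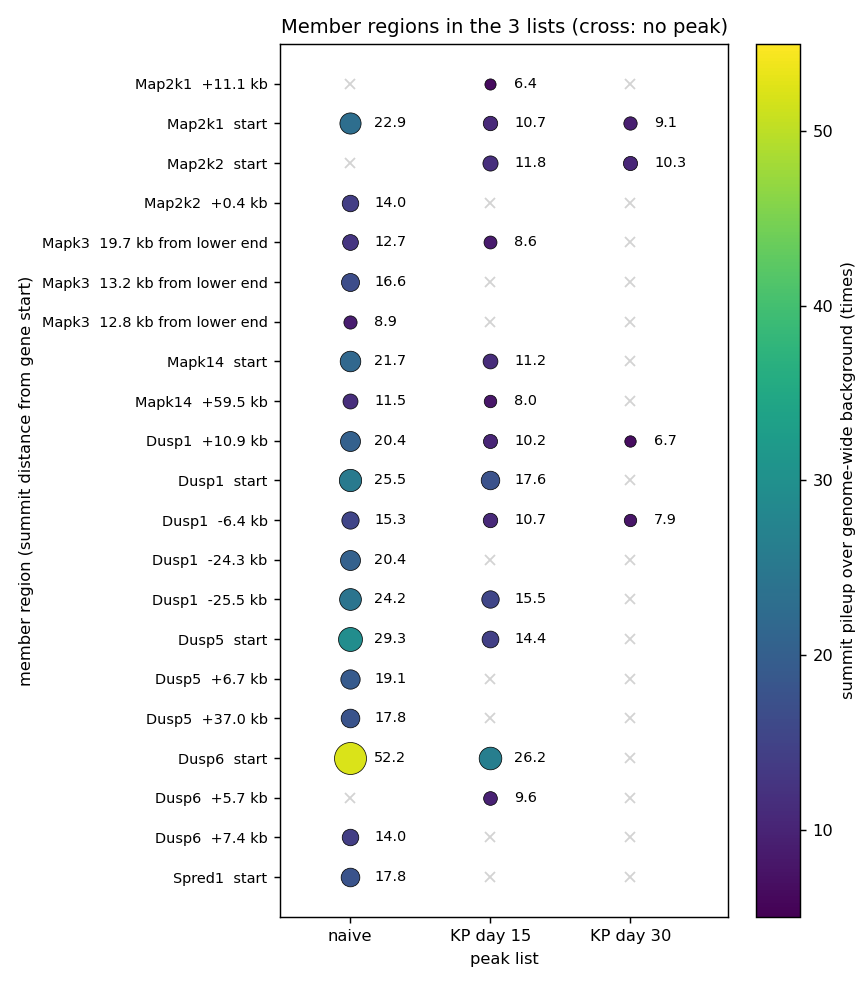
The 21 regions of the 9 genes (rows, with the distance of the summit from the gene start) in the naive, KP day 15 and KP day 30 lists (columns). Circle size, colour and the printed number give the summit pileup as a multiple of the genome-wide background, and a cross means that no peak was called. On this depth scale the naive Dusp6 start is the highest value at 52.2 times the background, while in tags the day 15 Dusp6 start is higher, with 49 against 41, and the day 30 column holds 4 peaks.

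Map2k1 and Map2k2 encode the dual specificity kinases directly above ERK, and theirs were the gene starts with a peak in the day 30 list. Map2k1 lies on the minus strand at chr9:64185769-64253605 (mm10). Its start peak was at chr9:64253312-64253887 in the naive list, chr9:64253546-64253843 at day 15 and chr9:64253537-64253808 at day 30. The summits lay 75, 84 and 73 bp upstream of the start, within 11 bp of each other. Summit pileups were 18 tags (22.9 times the genome-wide background) in the naive list, 20 tags (10.7 times) at day 15 and 15 tags (9.12 times) at day 30. The authors' fold over local background was 9.22, 5.97 and 5.71 in the same order. The naive peak was 576 bp wide and reached past the gene start, and day 15 had a second, separate peak of 15 tags at chr9:64253107-64253317, which touched the inner end of the naive peak and had its summit 331 bp inside the gene. Day 15 also had a peak of 12 tags inside Map2k1, at chr9:64242394-64242633 and 11050 bp into the gene, whose nearest gene end is that of Uchl4.

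Map2k2 lies on the plus strand at chr10:81105913-81124697 and was open at different places of the same start in the lists. The naive peak, at chr10:81106099-81106304, had 11 tags (14.0 times the background) with its summit 367 bp into the gene. The day 15 peak, at chr10:81105563-81106043, had 22 tags (11.8 times) with its summit 29 bp upstream, and the day 30 peak, at chr10:81105828-81106028, had 17 tags (10.3 times) with its summit 2 bp upstream. The day 15 and naive peaks were separated by 55 bp and the day 30 and naive peaks by 70 bp. Over all genes such a change of place was rare. Of 6042 genes with a boundary peak in both the day 15 and the naive list, 52 (0.861%) had no overlap between them. Map2k2 was the member among them, and this share is not matched for peak strength. The naive peak was weak, with 12.1% of the naive list below it by p-value, while the day 30 peak stood above 73.1% of its list. In the naive peak's decile of strength (decile 2 of 10), 33.9% of naive peaks overlapped a day 15 peak and 4.01% a day 30 peak. Whether naive cells had tags at the gene start itself below the level of a call was not tested.

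The sequences upstream of both starts are shown because these were the starts open at day 30. They are the 250 bases before each gene start in RefSeq (GRCm38.p6, the mm10 build), 5′ to 3′ on the gene's strand, at chr9:64253606-64253855 (minus strand) for Map2k1 and chr10:81105665-81105914 (plus strand, which takes in the first 2 bases of the annotated gene) for Map2k2. Capitals mark the matches on either strand to the motifs searched here, which were the cAMP response element TGACGTCA and its core TGACG, the activator protein motif TGACTCA, the ETS core CCGGAA, the PU.1-type GAGGAA, the CCAAT box CCAAT, the Sp1-type GGGCGG, the E box CACGTG and the CArG box.
Map2k1: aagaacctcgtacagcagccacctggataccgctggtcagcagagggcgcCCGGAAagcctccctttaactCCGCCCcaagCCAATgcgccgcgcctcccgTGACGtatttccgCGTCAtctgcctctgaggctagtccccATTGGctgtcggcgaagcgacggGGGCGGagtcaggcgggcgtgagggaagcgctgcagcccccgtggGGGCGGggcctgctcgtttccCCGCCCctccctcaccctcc
Map2k2: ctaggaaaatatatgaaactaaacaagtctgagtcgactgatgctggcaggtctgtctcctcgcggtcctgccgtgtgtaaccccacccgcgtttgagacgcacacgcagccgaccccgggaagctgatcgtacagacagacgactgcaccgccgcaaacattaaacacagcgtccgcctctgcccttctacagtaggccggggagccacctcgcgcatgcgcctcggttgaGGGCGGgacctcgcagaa

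Map2k1 had 9 matches: 4 of the Sp1-type, 2 CCAAT boxes, 2 copies of TGACG and 1 ETS core, and all of them lay under the peaks of all 3 lists. Map2k2 had 1 match, of the Sp1-type and 18 to 13 bases back from the end of the window, which lay under the day 15 and day 30 peaks and outside the naive one. Over all 32851 RefSeq promoter windows of this length, GGGCGG was found in 32.7%, CCAAT in 33.8%, TGACG in 17.8% and CCGGAA in 12.0%. Among the 8 member genes with a window, GGGCGG was found in 7, all but Dusp6. Their median GC content was 68.4%, against 52.4% over all windows. A match is a description of the letters and not a bound site.

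**Figure D3:**
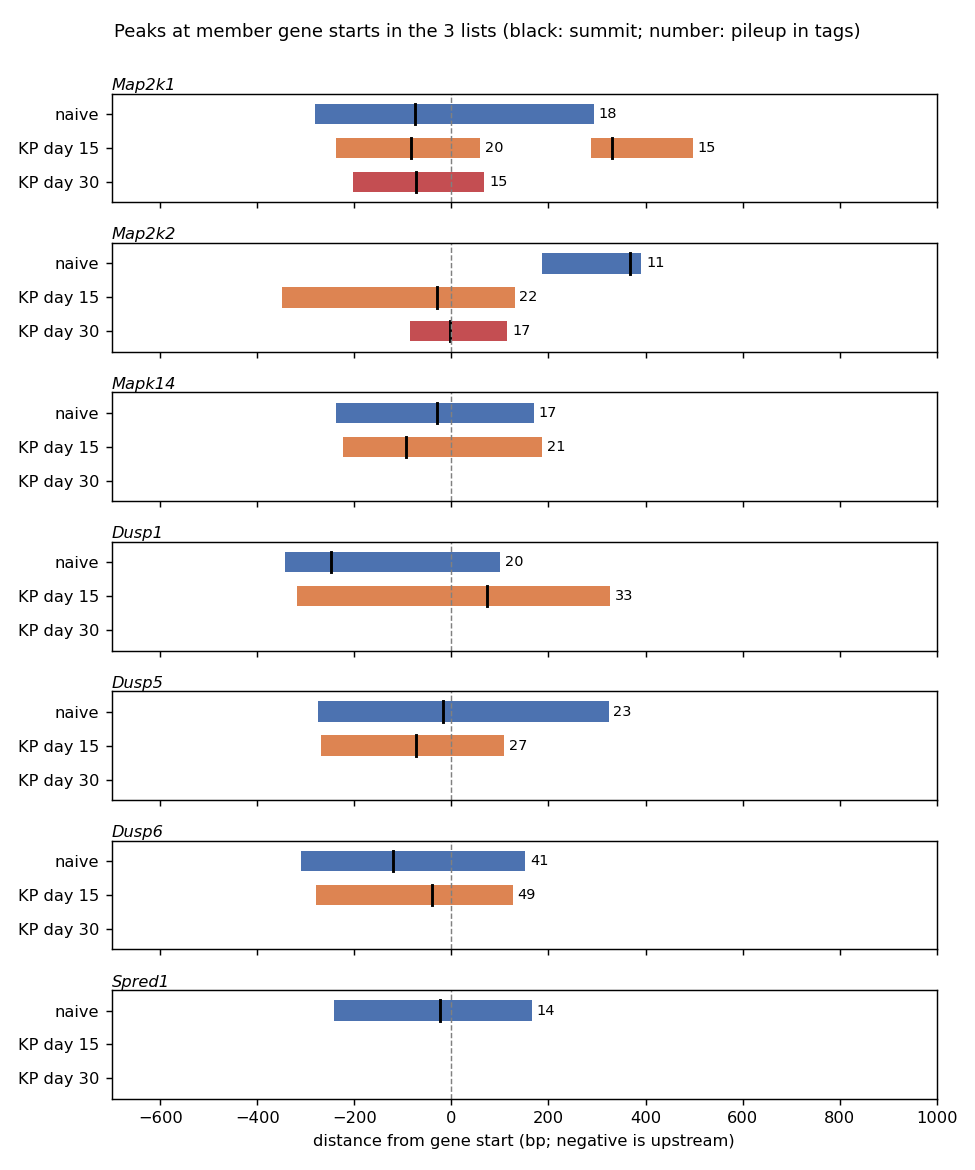
Peaks at the starts of the 7 member genes with a boundary peak, drawn to scale by distance from the gene start in bp (negative is upstream), for the naive, KP day 15 and KP day 30 lists. Bars are called peaks, black marks the summits and numbers the summit pileups in tags. The Map2k1 summits line up in all 3 lists. The Map2k2 naive peak lies downstream of the day 15 and day 30 ones, and Mapk14, Dusp1, Dusp5, Dusp6 and Spred1 have no bar at day 30.

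The 2 MAP kinases differed in where their peaks lay. Mapk3, which encodes ERK1, is at chr7:126759626-126765816 and had no boundary peak in any list. Its assigned peaks lay on the side of its lower coordinate: 3 in the naive list, with 10, 13 and 7 tags at 19660, 13189 and 12811 bp from the gene, and 1 at day 15, with 16 tags at 19700 bp. The outermost region was present at day 15 (chr7:126739606-126739926, 8.55 times the background) and in the naive list (chr7:126739563-126739966, 12.7 times). No day 30 peak was assigned to Mapk3, and the nearest one lay 235765 bp from that naive peak.

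Mapk14, which encodes p38 alpha, is on the plus strand at chr17:28691342-28748405. Its start peak had 17 tags in the naive list (chr17:28691104-28691512, 21.7 times the background), 21 tags at day 15 (chr17:28691119-28691529, 11.2 times) and no call at day 30. The ends of Mapk14 and of Slc26a8 both lie under this peak, so it cannot be given to 1 of the genes. A second region past the far end of Mapk14 was found in the same lists, with 15 tags at day 15 (2200 bp past the end) and 9 tags in the naive list (2275 bp). The nearest day 30 peak was 281503 bp from the day 15 one.

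The phosphatases included the strongest peaks of the 9 genes at day 15 and in naive cells. DUSP1 acts in the nucleus on p38, JNK and ERK, DUSP5 is a nuclear phosphatase for ERK, DUSP6 a cytoplasmic one for ERK, and DUSP2 a nuclear phosphatase of immune cells. Dusp2 had no assigned peak in any list. The other 3 had start peaks in the naive and day 15 lists, with none at day 30.

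Dusp6, on the plus strand at chr10:99263231-99267489, had the peaks of the 9 genes with the highest pileup and lowest p-value in both lists where it was called. Its start peak had 41 tags in the naive list (chr10:99262920-99263383) and 49 tags at day 15 (chr10:99262951-99263357), with summits 120 and 40 bp upstream, and no call at day 30. These are 26.2 times the genome-wide background at day 15 and 52.2 times in the naive list. Within its own list the peak ranked 191 of 10861 by p-value at day 15, above 98.2% of peaks, and 817 of 14731 in the naive list, above 94.4%. The nearest day 30 peak lay 347801 bp from the day 15 peak. Past the gene, day 15 had a peak of 18 tags at chr10:99268780-99269113 and the naive list a peak of 11 tags at chr10:99270515-99270714, which did not overlap.

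Most naive peaks in the same decile of strength had a counterpart in both tumour lists, which the Dusp6 start had at day 15 alone. Among naive peaks in decile 10, the strongest by p-value, 99.8% overlapped a day 15 peak and 80.1% a day 30 peak. That decile runs from a −log10 p of 25.9 to 95.3, with the Dusp6 start near its lower end at 31.5. The share for peaks of its own strength was not computed. Of 6364 naive peaks that overlapped a day 15 but no day 30 peak, the Dusp6 start ranked 83, with 98.7% of them weaker. The Dusp5 start, in decile 9, ranked 992, and in that decile 47.3% of naive peaks overlapped a day 30 peak.

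Dusp5, on the plus strand at chr19:53529145-53541809, had a start peak of 23 tags in the naive list (chr19:53528869-53529469, 29.3 times the background, fold 9.52) and 27 tags at day 15 (chr19:53528877-53529254, 14.4 times, fold 7.0), and no call at day 30. The naive list had 2 more Dusp5 peaks, 1 of 15 tags inside the gene at chr19:53535686-53535984 and 1 of 14 tags at chr19:53565997-53566280, 24188 bp past its far end. Neither was called at day 15 or day 30. With the nearest-gene limit at 100 kb in place of 50 kb, Dusp5 had 2 peaks at day 15 and 5 in the naive list. The farthest peak inside the 50 kb limit was 25444 bp from its gene, for Dusp1.

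Dusp1, on the minus strand at chr17:26505591-26508472, had the most regions, with 5. The start peak had 20 tags in the naive list (chr17:26508372-26508814, 25.5 times the background) and 33 tags at day 15 (chr17:26508145-26508791, 17.6 times), and none was called at day 30. The day 15 summit lay 74 bp inside the gene and the naive summit 249 bp upstream, a shift of 323 bp, and 2.61% of all regions shared between day 15 and naive shifted that far. The 10 kb around the summit also stood above the genome-wide level and held 308 tags at day 15, 3.29 times the genome-wide background, and 195 tags in the naive list, 4.97 times. The fold over that local background was 4.75 at day 15 and 4.29 in the naive list.

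Of the 4 distal Dusp1 regions, 2 were called at day 30, where the start was not. Both calls were weak, with −log10 q of 3.12 and 4.08, and both were lost when a −log10 q of at least 5 was asked for. A region about 10.9 kb downstream of the gene start, at chr17:26497375-26497866 in the naive list, had 16 naive, 19 day 15 and 11 day 30 tags, or 20.4, 10.2 and 6.69 times the background. A region 6.4 kb upstream, at chr17:26514788-26515071 in the naive list, had 12, 20 and 13 tags, or 15.3, 10.7 and 7.90 times. A region 25.5 kb upstream had 29 tags at day 15 and 19 in the naive list, and a neighbour 24.3 kb upstream had 16 tags in the naive list alone. The nearest gene end to each of these was that of Dusp1.

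The upstream sequences of Dusp6, Dusp5 and Dusp1 are shown because these starts had peaks in the naive and day 15 lists and no call at day 30. They are RefSeq windows of 250 bases (GRCm38.p6), 5′ to 3′ on the gene's strand, at chr10:99262981-99263230 (plus), chr19:53528895-53529144 (plus) and chr17:26508473-26508722 (minus), with capitals as for Map2k1.
Dusp6: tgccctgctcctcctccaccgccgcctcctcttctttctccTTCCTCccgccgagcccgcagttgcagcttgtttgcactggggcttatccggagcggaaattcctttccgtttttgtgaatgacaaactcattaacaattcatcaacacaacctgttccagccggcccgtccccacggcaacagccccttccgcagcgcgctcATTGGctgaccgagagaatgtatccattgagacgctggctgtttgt
Dusp5: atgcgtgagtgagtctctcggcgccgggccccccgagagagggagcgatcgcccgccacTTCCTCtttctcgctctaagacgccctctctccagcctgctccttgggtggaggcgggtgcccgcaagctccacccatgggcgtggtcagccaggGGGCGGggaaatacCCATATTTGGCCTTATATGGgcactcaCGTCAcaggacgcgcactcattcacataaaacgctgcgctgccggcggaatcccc
Dusp1: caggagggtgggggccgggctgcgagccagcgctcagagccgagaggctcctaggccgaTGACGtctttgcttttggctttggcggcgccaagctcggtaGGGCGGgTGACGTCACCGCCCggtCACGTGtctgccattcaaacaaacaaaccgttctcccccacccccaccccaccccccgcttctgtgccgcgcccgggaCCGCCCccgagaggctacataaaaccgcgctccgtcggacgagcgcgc

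The 3 windows had few motifs in common. Dusp5 had 2 CArG boxes side by side, 82 to 73 and 72 to 63 bases before the start, printed as 1 run of capitals. The CArG box is the motif of serum response factor, which with ETS partners is a target of ERK. It was found in 1.47% of all windows and in no other member with a window. The day 15 summit, 73 bp upstream, lay on the last base of the upper box. Dusp1 had the full cAMP response element, 143 to 136 bases before the start and flanked by an Sp1-type match on each side. That element was found in 1.55% of all windows and in no other member with a window. It contains a TGACG on each strand, and another TGACG lay farther upstream, 191 to 187 bases before the start. Dusp1 and Dusp2 had an E box, found in 6.02% of windows. Dusp5 and Dusp6 had GAGGAA, found in 23.3%, and Dusp6 a CCAAT box 46 to 42 bases before the start. No member with a window had TGACTCA, found in 4.46%. Every match in these 3 windows lay under both the naive and the day 15 peak.

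Spred1 encodes a membrane-bound inhibitor that brings neurofibromin to Ras. It is on the plus strand at chr2:117121071-117182279 and had 1 peak, in the naive list, at chr2:117120828-117121237 with its summit 23 bp upstream. The pileup was 14 tags, 17.8 times the background, and 26.1% of naive peaks were weaker. In the same decile of naive strength (decile 3 of 10), 40.3% of peaks overlapped a day 15 peak and 3.94% a day 30 peak.

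Pileup per depth was compared at the regions that 2 lists share. At the 10 regions of the members shared by day 15 and naive, the ratio of depth-scaled pileup ran from 0.466 to 0.699 with a median of 0.579, and over all 9443 shared regions the median was 0.449 with quartiles of 0.374 and 0.549. On this depth scale all 10 members' regions were lower at day 15 than in the naive list, as 99.6% of all shared regions were, while the median ratio was 1.38 with no scaling for depth and 1.29 when scaled by the median of all shared regions. The direction thus depends on the scaling. All 10 were also above the median of all shared regions, and above the median of shared regions with a like naive pileup, a comparison that any single factor per list leaves unchanged. Their place among the like regions ran from higher than 51.1%, at the region past the far end of Mapk14, to higher than 98.4%, at the Dusp1 start. Several of the 10 regions belong to Dusp1, so they are not 10 separate genes. The exact interval of every region still contained its like-pileup median.

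The single regions show how wide that error is. The Dusp1 start had a day 15 to naive ratio of 0.692 (95% exact interval 0.386 to 1.27), higher than 98.4% of 1197 regions of like naive pileup, whose median was 0.439. Its summits in the lists lay 323 bp apart, so this ratio compares pileups at different positions. The Dusp6 start had 0.501 (0.324 to 0.779), higher than 97.2% of 181 regions of like naive pileup with a median of 0.358. The Dusp5 start had 0.492 (0.272 to 0.899) and the Map2k1 start 0.466 (0.234 to 0.935), with like-pileup medians of 0.420 and 0.444. The Dusp6, Dusp5 and Map2k1 intervals lie below 1 on the depth scale only. With no scaling these 3 starts had ratios of 1.20, 1.17 and 1.11, and scaled by the median of all shared regions 1.12, 1.10 and 1.04.

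**Figure D4:**
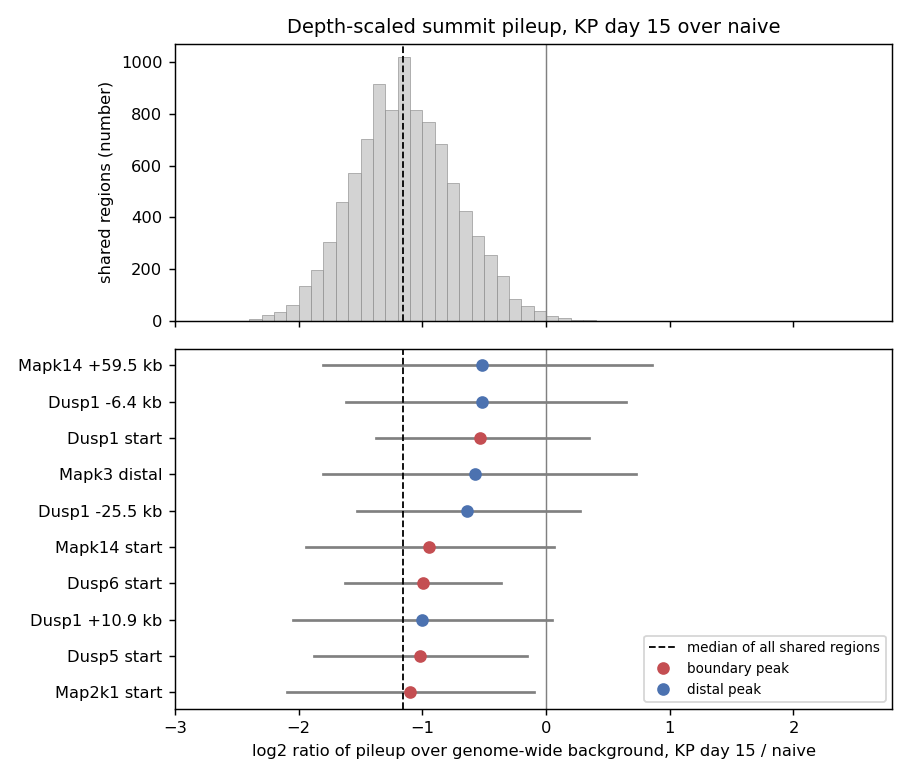
Depth-scaled summit pileup at day 15 over naive, as log2 ratios (horizontal axis), for all 9443 shared regions (grey histogram, number of regions) and the 10 regions of the members (points, with 95% exact intervals for counting error). On this depth scale, which sets the side of 1 on which they fall, all 10 points lie between the median of all shared regions (dashed line) and a ratio of 1 (a log2 ratio of 0), with all 10 intervals crossing the dashed line and 7 of them crossing a ratio of 1. With no scaling, and scaled by the median of all shared regions, all 10 points are above 1.

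Few regions could be compared at day 30. The 3 regions shared by day 30 and naive had ratios of 0.328 to 0.517 with a median of 0.398, against 0.300 over all 3193 shared regions, and the median was 0.833 with no scaling for depth and 1.33 when scaled by the median of all shared regions. The 4 regions shared by day 30 and day 15 had ratios of 0.658 to 0.879 with a median of 0.796, against 0.711 over all 3121. The median was 0.70 with no scaling for depth and 1.12 when scaled by the median of all shared regions, with 3 of the 4 regions then above 1. On the depth scale all 4 intervals include 1, and the lowest ratio, at the Dusp1 region 10.9 kb downstream, was 0.658 (0.283 to 1.46). Against shared regions of like pileup, 1 of the 3 regions was above the median for day 30 over naive. For day 30 over day 15 it was 1 of the 4, with the Map2k1 start equal to the median. The Dusp1 region 10.9 kb downstream had 0.328 against a like-pileup median of 0.421, and 0.658 against 0.884. Every interval contained the like-pileup median.

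Which member starts were called depended on the length of the lists. Taking the 3352 strongest peaks of each list, as many as the day 30 list has, boundary peaks remained at Dusp5 and Dusp6 in the naive list, at Dusp5 and Dusp6 at day 15, and at Map2k1 and Map2k2 at day 30. These are 2 genes in each list, where 2797 naive, 2850 day 15 and 2804 day 30 genes of all 21887 had a boundary peak. The naive Map2k1 start, at rank 4029, was the next member peak of the naive list. Over all genes with a day 30 boundary peak, 67.8% also had one in the naive top of that length and 70.2% in the day 15 top.

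Beyond the members, 71 other genes of the pathway were counted, a list also drawn up with earlier results of these data known. A boundary peak was present at 42 naive (59.2%), 36 day 15 (50.7%) and 16 day 30 (22.5%) genes, against 34.7%, 29.6% and 12.8% of all genes. Relative to naive, day 15 lacked a boundary peak at 9 of 42 (20.4% over all genes) and had a new one at 3 (Nras, Mapk12 and Dusp3), where 3.04% of all genes without a naive one did. Day 30 lacked one at 26 of 42 (63.5% over all genes) and had 0 new ones, where 0.245% of all genes without a naive one did. Relative to day 15, day 30 lacked one at 21 of 36 (57.9% over all genes). Day 30 had a new one at 1, Tab2, a partner of the kinase TAK1. Of all genes without a day 15 one, 0.506% did. Tab2 carried one in naive cells too, so day 15 was the list that lacked it. These losses lie near the shares over all genes. By pattern, 18 pathway genes (25.4%, against 15.2% of all genes) carried boundary peaks in naive cells and at day 15 only, as Mapk14, Dusp1, Dusp5 and Dusp6 did, among them the Ras gene Hras and the exchange factor Sos1. All 3 lists had one at 15 genes (21.1%, against 12.4%), as for Map2k1 and Map2k2, among them Shoc2, Mapk6 and Mapk9. The naive list alone had one at 8 (11.3%, against 6.83%), as for Spred1, among them the exchange factor Sos2, the adaptor Grb2 and the phosphatase Ptpn11. No list had one at 26 (36.6%, against 63.2%), as for Mapk3 and Dusp2, among them Gab2, Rasgrp1 and Rasgrp3.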

How the data were processed

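The deposited data are 3 lists of ATAC-seq peaks, 1 list per group of 4, 4 and 3 samples (11 in all), and no source used here says whether samples were pooled. The series' design text speaks of triplicates. Per the submitters' processing notes, reads were handled with Bowtie2 2.3.4.1, MACS2 2.1.1 and the mm10 build. Read filters and any shift of read ends are not given in the sources used here. Column meanings, for 10 columns without names, were read from the values. The authors' score is the −log10 q-value times 10, cut to a whole number, in nearly all peaks. The deposited fold is a ratio to the local background at the summit, and the deposited −log10 values are of the p-value and the q-value. The lowest −log10 q was 1.41, 1.59 and 1.35 in the naive, day 15 and day 30 lists.

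Pileup and local background were recovered from fold, as (pileup + 1) over (background + 1), and p-value, as the upper Poisson tail, within 0.001 on the −log10 scale. Backgrounds fell on steps of 0.02, which correspond to tags extended to 200 bp over 10 kb, and the lowest background of a list, 0.785, 1.87 and 1.65 tags, gave its depth. These are tags as counted by the peak caller and not reads, and PCR copies are not independent, so intervals cover counting error only. Recovery was tested on simulated data made with the same formulas, so that test cannot show whether the peak caller used them. Ratios between lists are of pileup over that floor, with exact conditional intervals. Regions were shared at an overlap of 1 bp. Like regions have a pileup within 1 tag in the list that the ratio divides by, naive or day 15.

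Gene positions, names and promoter windows came from RefSeq tables of GRCm38.p6, the build called mm10. The gene table has no exons, so peaks are called boundary, inside or distal. Strand came from the promoter table, which matched 8 of the 9 genes, and Mapk3 has no window there. All 71 pathway and all 46 marker genes matched. All 9 members are named, and up to 3 pathway genes per pattern of presence, in list order, and a gene that this rule names is not reported here. The members and lists were chosen with earlier results of these data known. Intervals are at 95%. The analysis used Python 3.11.15, numpy 2.4.6, pandas 2.3.3, scipy 1.17.1 and matplotlib 3.10.9. Alternatives were a −log10 q of at least 5, lists of equal length, other distances and overlaps, and other scalings. Comparisons with like regions were added after seeing the data.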

Additional observations from a re-analysis of the deposited data

How the results depend on the processing

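With 1 list per group, leaving out a replicate could not be run. No paired analysis was possible because each group has 1 peak list and the replicate numbers of the samples have no values of their own. Of the values that answer a comparison, 77 stayed within their counting interval or, for counts, within 1.5 times, 14 moved farther, and 3 whose interval excluded 1 crossed it. Of those for single genes and regions the numbers were 237, 32 and 8. Many of the unchanged values could not change. A region's ratio stays the same under settings that alter only the lists, distances or overlaps, and ratios whose peak dropped out were not counted. A gene with 0 peaks under both settings counted as unchanged. The tallies are therefore no measure of how robust the results are. Ratios whose interval includes 1 can cross it within their interval, as the day 30 over day 15 median did at 1.12 when scaled by the median of all shared regions. With a −log10 q of at least 5, member peaks at day 30 were 2, both Dusp1 peaks being lost. With lists of equal length, members with a boundary peak were 2 at day 15 and 2 in the naive list, pathway genes 18 at day 15 and 19 in the naive list, and member peaks 2 at day 15 and 2 in the naive list. The shares of member peaks that overlap were then 100% for day 15 in naive and 100% for naive in day 15, and 0% for each of the 4 shares with day 30. They rest on 2 naive, 2 day 15 and 4 day 30 member peaks, and the shares over all peaks at that length were not computed. Dusp5 and Dusp6 then lacked a boundary peak at day 30, as 32.1% of all genes with a naive one did.

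The direction of the ratios rests on the scaling. With no scaling for depth the median ratio was 1.38 for day 15 over naive and 0.833 for day 30 over naive, and the day 15 over naive ratio was 1.11 at the Map2k1 start, 1.17 at the Dusp5 start and 1.20 at the Dusp6 start. Scaled by the median of all shared regions, the medians were 1.29 for day 15 over naive and 1.33 for day 30 over naive. The Map2k1, Dusp5 and Dusp6 starts were then at 1.04, 1.10 and 1.12 for day 15 over naive. For day 30 over naive, Map2k1 was at 1.33 and the Dusp1 region 10.9 kb downstream at 1.09. Member pileups of 7 to 49 tags leave wide intervals, and a missing call is not a closed region.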

Other observations

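The groups of pathway genes had boundary peaks at day 30 in unlike numbers, and the difference was not tested. Of 9 MAP kinase kinase kinases and their partners, 7 had one in naive cells, 6 at day 15 and 6 at day 30. Of 12 genes for Ras, its exchange factors and adaptors, the count was 7 in naive cells, 5 at day 15 and 0 at day 30. The 13 other MAP kinases and MAP kinase kinases had 8, 9 and 3 in the same order, and the 11 other phosphatases of MAP kinases 7, 6 and 3. Among 6 Raf kinases and scaffolds the counts were 4, 3 and 1, among 10 kinases activated by MAP kinases 5, 4 and 2, and among 10 other inhibitors of Ras and Raf signalling 4, 3 and 1. Over all 21887 genes the shares were 34.7%, 29.6% and 12.8%.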
